A study of Mus musculus with 22 samples.

Results

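The striatum of mice sampled 12 h after thyroid hormone (TH) was compared with the striatum of mice treated with propylthiouracil (PTU, a drug that blocks the synthesis of TH). The comparison rests on 6 of the 22 RNA-seq libraries of the study, namely Striatum TH12h replicates 1 to 4 and Striatum PTU replicates 3 and 6. Of the 55341 rows of the striatum count table, the 15939 genes with a mean normalised count above 10 over these 6 libraries were tested. A normalised count is a raw count divided by the effective size of its library and multiplied by the mean effective size of the libraries. The 4 other striatum libraries, taken 24 h after TH, served only for alternative estimates of the spread and for description.

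All animals were labelled wild-type C57BL/6J males of 8 weeks. The control labels name 2 weeks of PTU and call the animals hypothyroid. The labels of the 12 h group name TH and the time and do not mention PTU, although the design text of the series describes hypothyroid mice for both of its tissues. The study's overview lists one intraperitoneal injection of T3 and T4 together for striatum, and no procedure that made these animals hypothyroid. Whether the 12 h animals had received PTU is therefore not settled by these sources. Nothing in the labels says that the libraries came from separate animals, so p-values measure the spread between these libraries.

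TH acts through the nuclear receptors TRα and TRβ, which bind DNA as dimers with RXR, and recruit corepressors without hormone and coactivators with it. In brain, T4 crosses the blood-brain barrier through transporters such as Slco1c1, deiodinase 2 converts it to the active T3 in glial cells, and deiodinase 3 inactivates both hormones in neurons. The striatum is made mostly of GABAergic projection neurons, which express the D1 or the D2 dopamine receptor and receive input from cortex and thalamus.

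The 6 libraries held 8.84 to 9.35 M counts (PTU) and 9.42 to 10.2 M counts (12 h), and mitochondrial rows took 17.3% to 17.7% and 14.0% to 16.2% of them. No pair of replicates agreed within counting noise (chi-square divided by its degrees of freedom, 4.14 to 14.3). Although all animals were labelled male, PTU replicate 6 and 12 h replicate 1 had 35316 and 26461 normalised counts of the inactive X transcript Xist and none of the Y-linked Ddx3y. The other 4 libraries had at most 18.5 of Xist and 193 to 264 of Ddx3y. Each of these sets of libraries holds 1 PTU library, so every difference between groups can also be read within a set, without a test. With 2 libraries against 4, an exact two-sided permutation test of a single gene cannot go below p = 0.133, so gene calls rest on a model fitted across all genes.

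At an adjusted p under 0.05 in the quasi-likelihood test of edgeR, 1442 genes (9.05% of those tested) differed at 12 h. Of these, 862 (5.41% of those tested) were higher and 580 (3.64%) lower. Calls counted in a gene list are to be set beside these shares. The log2 changes over all genes had a median of 0.003 and ranged from -0.61 to 0.72 between the 5th and 95th percentiles. The scaling of the libraries places this median near 0, so it does not show whether the bulk of genes moved. With upper-quartile scaling the median was -0.044. Only 281 of the called genes changed by more than 1 on the log2 scale, 190 of them upwards. In all 1442 genes the 4 libraries at 12 h lay wholly above or wholly below both PTU libraries. This was true of 36.4% of all genes tested. A lack of overlap in a called gene, described below for several genes, therefore adds nothing to its call. Upper-quartile scaling, which kept the total near this level at 1551, turned the balance to 718 higher and 833 lower.

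The number of calls depended strongly on the libraries and on the estimate of the spread. It was 85 without PTU replicate 6, 375 without 12 h replicate 2, 643 without PTU replicate 3 and 685 without 12 h replicate 3, and 70 genes (55 higher, 15 lower) passed in all 6 fits made without one of the libraries. When all 10 striatum libraries shared one estimate of the spread, 152 genes (0.96%) were called, 116 higher (0.733%) and 36 lower (0.227%), and all of them were among the 1442. The 24 h group holds a library (replicate 2) with far more cortical and fewer striatal marker counts than the rest, and with the 9 other libraries 1257 genes were called. Calls of both the 6-library and the 10-library fit are referred to here as calls in both fits.

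Known targets of the hormone were mostly higher at 12 h. Of 20 genes known from the study or earlier work to respond to TH, 19 were tested, all 19 had a positive log2 change, 13 were called higher and none lower, with a median log2 change of 0.86. The list includes genes that the study discusses, so its direction is not independent evidence. Its summed normalised counts were 13821 and 15702 in PTU and 25779, 24582, 23180.0 and 23142 at 12 h, so that every 12 h library lay above both controls. Within the libraries with high Xist the sum differed by 0.72 on the log2 scale, and within those with Y-linked counts by 0.77. Of the 13 calls, 6 held without PTU replicate 6, 7 without PTU replicate 3 and 10 without 12 h replicate 2, and 6 were also called in the 10-library fit.

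Hr encodes hairless, a nuclear corepressor that binds TH receptors, on chromosome 14 from 70552212 to 70573548 (plus strand, GRCm38, GENCODE M21). Its normalised counts were 40.3 and 60.1 in PTU and 255, 294, 269 and 308 at 12 h, and the log2 change was 2.48 ± 0.18 (SE, adjusted p = 0.000532). The lowest 12 h library thus had more than 4 times the counts of the highest PTU library, and the call held in all 6 fits without a library and in the 10-library fit (adjusted p = 0.0026). Gls2, the liver-type glutaminase that turns glutamine into glutamate, had 15.3 and 16.6 in PTU and 79.5, 73.1, 99.1 and 66.4 at 12 h, and the log2 change was 2.31 ± 0.25 (SE, adjusted p = 0.00505). Both PTU libraries were close to each other here, and the 12 h libraries were spread over a range wider than the PTU level itself. Flywch2, a FLYWCH-type zinc finger gene, had 59.9 and 59.1 in PTU and 156, 154, 171 and 160.4 at 12 h, and the log2 change was 1.43 ± 0.14 (SE, adjusted p = 0.00244). Sema7a, a membrane-anchored semaphorin that acts in axon growth, had 339 and 304 in PTU and 661, 728, 770.3 and 709.9 at 12 h, and the log2 change was 1.16 ± 0.10 (SE, adjusted p = 0.0013). In neither gene did the groups come near each other, and both were also called in the 10-library fit.

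Klf9, a Krüppel-like transcription factor and a classical receptor target, moved by much less. Its normalised counts were 2009 and 2109 in PTU and 2906, 2969, 2792 and 3016 at 12 h, and the log2 change was 0.50 ± 0.08 (SE, adjusted p = 0.0115), with an adjusted p of 0.042 in the 10-library fit. All 4 libraries at 12 h lay above both controls, but the call was lost without PTU replicate 6, at an adjusted p of 0.0817. Of 14 Krüppel-like factors tested, 4 were called higher (Klf9, Klf10, Klf12 and Klf7, at log2 changes of 0.50, 0.41, 0.47 and 0.43) and Klf16 was called lower (-0.45). None of these 5 calls held without PTU replicate 6. Trp53inp2, which promotes autophagosome formation, had 2627 and 2896 in PTU and 4702, 4746, 5227 and 5326 at 12 h, and the log2 change was 0.86 ± 0.10 (SE, adjusted p = 0.00541). Desi1, a deSUMOylating isopeptidase, had 969 and 1042 in PTU and 1432, 1445, 1355 and 1503 at 12 h, and the log2 change was 0.51 ± 0.08 (SE, adjusted p = 0.0113). Stat5a, a transcription factor of cytokine and growth hormone signalling, was scarce, with 7.63 and 14.5 in PTU and 41.2, 32.5, 24.5 and 56.0 at 12 h, and the log2 change was 1.78 ± 0.43 (SE, adjusted p = 0.0355). These 3 genes separated the groups, as every called gene did. Of them only Trp53inp2 was called in the 10-library fit (adjusted p = 0.0286). Exons of Desi1, Stat5a and Gls2 overlap the tested genes Xrcc6, Stat3 and Spryd4 on the opposite strand. The strand setting of the counting is not stated, so their counts may include reads of those genes. This holds for 31 of the 180 named genes, and among those without a further remark for Adcy2, Dusp1, Gabra4, Gnb5, Grin2d, Kcnk3, Tef and Thra.

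**Figure D1:**
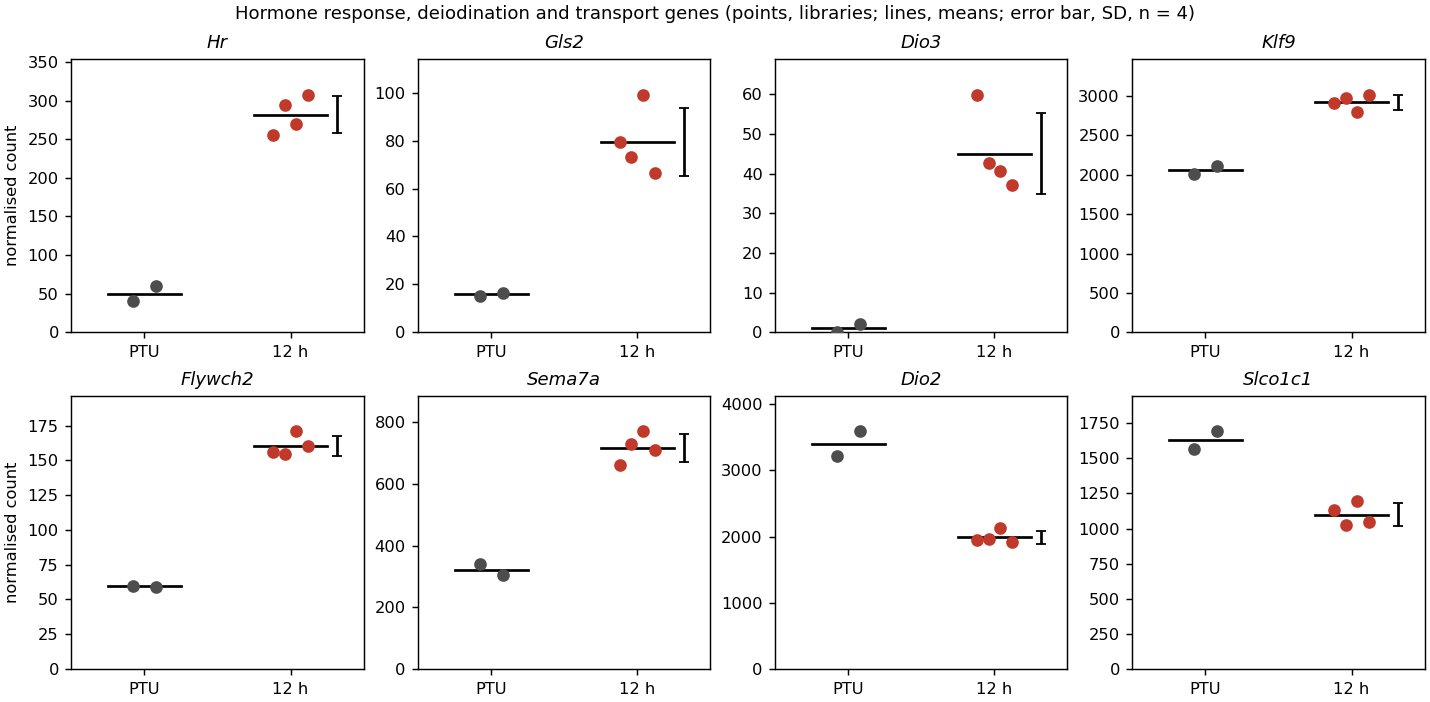
Normalised counts (y axis, from 0) of 8 genes in the PTU libraries (grey, 2) and the 12 h libraries (red, 4), with lines at the means and the SD over the 12 h libraries. Hr, Gls2, Dio3, Klf9, Flywch2 and Sema7a lie higher at 12 h and Dio2 and Slco1c1 lower, with no overlap of the groups.

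Among the genes that handle the hormone, the inactivating enzyme rose and the activating enzyme fell. Dio3, the deiodinase that inactivates T4 and T3 (chromosome 12 from 110279068 to 110281097, plus strand), had 0 and 2.07 in PTU and 59.9, 42.6, 40.6 and 37.0 at 12 h, which came from 2 reads in the PTU libraries together and 185 at 12 h. The ratio per library size was 42.3, with a 95% interval of 11.5 to 352 that covers counting error only. The difference was called at an adjusted p of 0.00541 and held without each library in turn, but missed the threshold in the 10-library fit (0.087). Dio2, the deiodinase that makes T3 from T4 in astrocytes and tanycytes, had 3212 and 3590.5 in PTU and 1949, 1964, 2128 and 1911 at 12 h, and the log2 change was -0.77 ± 0.09 (SE, adjusted p = 0.00541). Its decrease also held without each library, with an adjusted p of 0.066 in the 10-library fit. Dio2 shares exonic sequence with the tested antisense gene Gm26512.

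Slco1c1, the T4 transporter of brain endothelium and astrocytes, had 1569.7 and 1692 in PTU and 1132, 1024, 1196 and 1045 at 12 h, and the log2 change was -0.57 ± 0.09 (SE, adjusted p = 0.0107), and was the one gene of this group called in both fits. Slc7a8, an amino acid transporter that also carries T3, was higher, with 926 and 875 in PTU and 1123, 1335, 1355 and 1221 at 12 h, and the log2 change was 0.48 ± 0.10 (SE, adjusted p = 0.0218). Crym, a cytosolic T3-binding protein, had 1158 and 1385 in PTU and 748, 729.8, 691 and 442 at 12 h, and the log2 change was -0.96 ± 0.18 (SE, adjusted p = 0.017). Crym was also far less abundant in the cortical 24 h library than in the other 24 h libraries, by -2.17 on the log2 scale, and its log2 change was -0.34 when the marker score described below entered the fit. Altogether 2 of the 9 tested genes of transport and deiodination were called higher and 3 lower.

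The receptors themselves did not pass the test. Thra had 2719 and 2671 in PTU and 2988, 3576, 3750.4 and 2809 at 12 h (adjusted p = 0.194) and Thrb had 524 and 425 in PTU and 517, 550.1, 514 and 411 at 12 h (adjusted p = 0.783). In Thra the 12 h libraries lay above both controls, by little in replicate 4, and in Thrb the groups overlapped.

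A receptor dimer recognises 2 copies of the hexamer AGGTCA spaced by 4 bases. Promoters of 250 bases before and 50 bases after the start were taken from RefSeq (GRCm38.p6) and matched by symbol for 11182 of the genes tested. No tested promoter held the pair with its 4-base spacer, on either strand, against 5 of all 32851 promoters in the table (0.0152%). Only exact letters in these short promoters were searched, so sites elsewhere or with other letters were not covered. The study instead used a motif matrix over the genome and found a large part of the receptor sites in introns. Hr and Gls2 had no promoter in the table. A lone AGGTCA, on either strand, occurred in 14.3% of the tested promoters, 15.2% of those called higher, 10.7% of those called lower, and 13.4% and 13.8% of those called higher and lower in both fits. The GC-rich GGGCGG letters occurred in 67.9% of all tested promoters, 73.6% of those called higher and 65% of those called lower, and the cAMP response element TGACGTCA in 3.51%, 3.92% and 3.23%. Of the 45 genes named here by rule and called in both fits, 37 had a promoter in the table and 4 of these held the hexamer. All 4 were higher at 12 h. A lone hexamer occurred in 14.3% of all tested promoters, so such matches are common. The windows of the 4 genes are shown as examples of a change called in both fits beside the hexamer, without the pair. Capitals mark the hexamer or its reverse complement, with up to 25 bases on each side and nothing past the start, on the strand of the gene. They lie at chr1:134079275-134079330 (Btg2, minus strand), chr7:3393893-3393948 (Cacng8, plus), chr7:143823092-143823147 (Dhcr7, plus) and chr13:52981040-52981076 (Nfil3, minus).
Btg2: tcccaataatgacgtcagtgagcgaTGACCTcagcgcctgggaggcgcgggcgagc
Cacng8: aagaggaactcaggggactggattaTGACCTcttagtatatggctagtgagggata
Dhcr7: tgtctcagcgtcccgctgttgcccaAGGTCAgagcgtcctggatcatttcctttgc
Nfil3: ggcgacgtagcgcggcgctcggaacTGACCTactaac
The hexamer ended 144 bases before the start in Btg2, 118 in Cacng8, 44 in Dhcr7 and 6 in Nfil3. The Btg2 window also holds the cAMP response element. Dhcr7 has 2 more such sites, both before other starts, that are not shown. A match of letters is a description and shows no binding.

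By p-value in the 6-library fit among genes called in both fits, the 12 leading increases were Adra2a, Hr, Fam57b, Sema7a, Hs6st1, Flywch2, Iglon5, Gls2, Mfsd6, Nt5dc3, Acot11 and Mycn, and the 12 leading decreases were Scn9a, Man1a, Hapln1, Tnfrsf19, Man2a1, Asb11, Lrrk2, 2510009E07Rik, Sgk3, Crot, Lrp1b and Rpl31-ps8. The last of these is a ribosomal pseudogene whose reads may belong to its parent gene.

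Adra2a, the α2A adrenergic receptor, had 123 and 114 in PTU and 358, 394, 399 and 408 at 12 h, and the log2 change was 1.72 ± 0.11 (SE, adjusted p = 0.000511). Scn9a, a voltage-gated sodium channel known from pain-sensing neurons (chromosome 2 from 66480080 to 66634962, minus strand), had 402 and 419.9 in PTU and 132, 121, 109.5 and 112 at 12 h, and the log2 change was -1.79 ± 0.11 (SE, adjusted p = 0.000511), the smallest adjusted p together with that of Adra2a. In both genes the libraries of a group were tight and the groups were about 3-fold apart. The cortical difference, described below, was 0.57 for Adra2a and -1.18 for Scn9a, each with the sign of the change at 12 h. With the marker score in the fit of 10 libraries, also described below, their log2 changes were 1.49 and -1.39. The other 10 sodium channel genes tested were not called by edgeR, and DESeq2 on the 6 libraries called 1 of them, Scn4b, which had 1407 and 2273 in PTU and 1516, 1111, 1054 and 1007 at 12 h.

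Among these leading genes, Hs6st1, a heparan sulfate 6-O-sulfotransferase, had 618 and 555 in PTU and 1227, 1314, 1360.2 and 1145 at 12 h, and the log2 change was 1.11 ± 0.10 (SE, adjusted p = 0.00181). Man1a, a Golgi mannosidase of early N-glycan trimming, had 2265 and 2516 in PTU and 961, 798, 655 and 849 at 12 h, and the log2 change was -1.55 ± 0.13 (SE, adjusted p = 0.00127), and Man2a1, which acts later in the same pathway, had 542 and 540.2 in PTU and 337, 299, 292 and 324 at 12 h, and the log2 change was -0.79 ± 0.09 (SE, adjusted p = 0.00541). All 3 were called in both fits and in each fit that left out a library. Man1a overlaps the tested gene Gm16998 on the opposite strand.

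Acot11, an acyl-CoA thioesterase, had 62.1 and 60.1 in PTU and 154, 169, 141 and 141 at 12 h, and the log2 change was 1.31 ± 0.15 (SE, adjusted p = 0.00541). Fam57b, of the family of ceramide synthesis genes, had 277 and 299 in PTU and 638, 654, 679.7 and 755 at 12 h, and the log2 change was 1.24 ± 0.10 (SE, adjusted p = 0.00127), and its exons overlap Aldoa on the opposite strand. Crot, the peroxisomal carnitine octanoyltransferase, had 474 and 426 in PTU and 297, 259.8, 267 and 276 at 12 h, and the log2 change was -0.71 ± 0.10 (SE, adjusted p = 0.00745). Acot11 and Crot showed no overlap between groups and were called in both fits and without each library.

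Among regulators, Mycn, a MYC family transcription factor, had 198 and 218 in PTU and 397, 463, 375 and 429.9 at 12 h, and the log2 change was 1.00 ± 0.12 (SE, adjusted p = 0.00541). Lrrk2, a kinase linked to Parkinson disease, had 256 and 265 in PTU and 151, 123, 110.4 and 119.6 at 12 h, and the log2 change was -1.05 ± 0.14 (SE, adjusted p = 0.00696). Sgk3, a kinase downstream of phosphoinositide 3-kinase, had 324 and 315 in PTU and 169.7, 201, 160.5 and 178 at 12 h, and the log2 change was -0.85 ± 0.11 (SE, adjusted p = 0.00723). Lrrk2 and Sgk3 lost the call without PTU replicate 6, at adjusted p-values of 0.0668 and 0.0632, whereas Mycn kept it throughout. Iglon5, a neuronal adhesion protein, rose by 1.24 on the log2 scale, the transporter-family gene Mfsd6 by 0.84 and Nt5dc3 by 0.97. Tnfrsf19, a receptor of the tumour necrosis factor family, had a log2 change of -0.69, Asb11, a ubiquitin ligase adaptor, of -1.66, Lrp1b, a lipoprotein receptor relative, of -0.64 and the uncharacterised 2510009E07Rik of -0.62.

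Cell type markers shifted between the groups, and in whole tissue fewer cells of a type and less RNA per cell cannot be told apart. Striatal projection neuron markers were lower at 12 h. Of 26 tested, 11 were called lower and none higher, with a median log2 change of -0.77. Their summed normalised counts were 77857 and 112904 in PTU and 76582, 54069, 53299 and 52172 at 12 h, so 12 h replicate 1 lay just under PTU replicate 3 and the other 3 libraries well below both controls. No marker of the list was at 0, and 1 member (Gpr52) was below the count filter. Of the 11 calls, none held without PTU replicate 6, 2 held without 12 h replicate 2 and 4 without 12 h replicate 3, and none was made in the 10-library fit.

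Tac1, the precursor of substance P in neurons with the D1 receptor, had 3288 and 4628 in PTU and 2026, 1281, 1434 and 1129 at 12 h, and the log2 change was -1.43 ± 0.21 (SE, adjusted p = 0.00889). Penk, the enkephalin precursor of neurons with the D2 receptor, had 9488 and 14299.7 in PTU and 6596, 3882, 3401 and 3811 at 12 h, and the log2 change was -1.43 ± 0.25 (SE, adjusted p = 0.0139). Pdyn, the dynorphin precursor, had 1095 and 1440.1 in PTU and 817, 565, 514 and 438 at 12 h, and the log2 change was -1.12 ± 0.21 (SE, adjusted p = 0.0167). In these 3 neuropeptide genes both controls lay above all 12 h libraries, and 12 h replicate 1 was the highest of its group. Ido1, an enzyme of tryptophan breakdown, changed by -1.40 (adjusted p = 0.0102). The receptor gene Drd1 had 1903 and 2812 in PTU and 1734, 1171, 1087 and 1025 at 12 h, and the log2 change was -0.91 ± 0.21 (SE, adjusted p = 0.0335). Drd2 had 1365 and 2162 in PTU and 1477, 902, 916 and 867 at 12 h, with an adjusted p of 0.0741, and Ppp1r1b (DARPP-32) had 5013 and 7954 in PTU and 5878, 4126, 3839 and 3982 at 12 h, with an adjusted p of 0.138. In Drd2 and Ppp1r1b the groups overlapped through 12 h replicate 1, which exceeded PTU replicate 3.

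Cortical excitatory neuron markers went the other way. Of 16 tested, 5 were called higher and none lower, with a median log2 change of 0.84, and their sums were 12953 and 8474 in PTU and 15638, 22569.6, 22003 and 19840.5 at 12 h. The 4 sums at 12 h lay above both controls. Slc17a7, the vesicular glutamate transporter of cortical neurons, had 3647 and 1902 in PTU and 5225, 8018, 9577 and 8525 at 12 h, and the log2 change was 1.50 ± 0.29 (SE, adjusted p = 0.0188). Tbr1, a transcription factor of deep cortical layers, had 1285 and 1219 in PTU and 2240.0, 3674, 3238 and 2644 at 12 h, and the log2 change was 1.24 ± 0.18 (SE, adjusted p = 0.00919). Nptx1, a neuronal pentraxin, changed by 1.37 and the cortical transcription factor Emx1 by 1.53. Of the 5 calls, 1 (Nptx1) held without PTU replicate 6 and none was made in the 10-library fit.

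**Figure D2:**
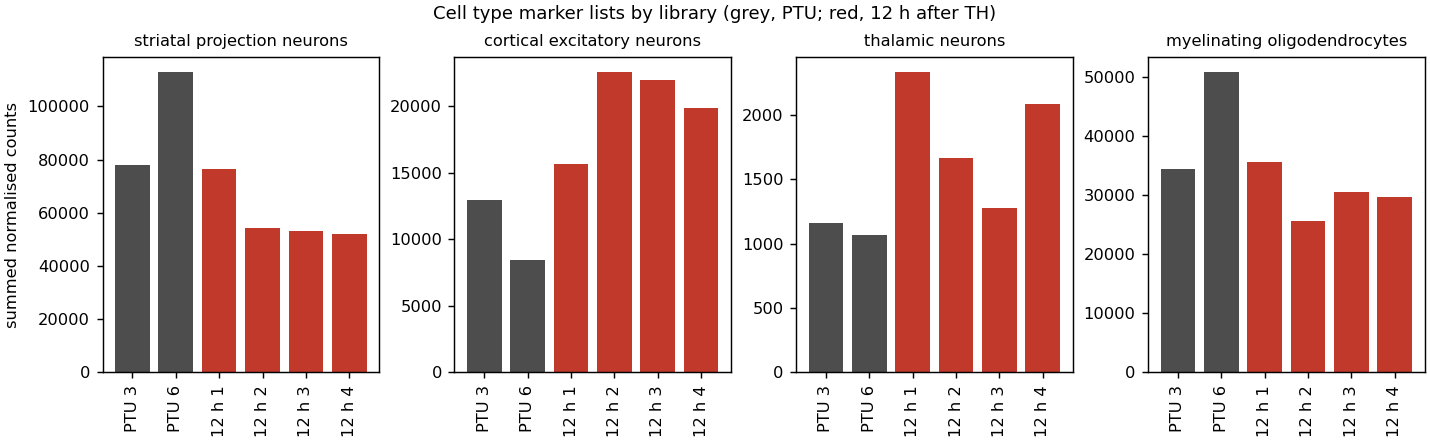
Summed normalised counts of 4 marker lists in the 6 libraries (grey bars, PTU; red bars, 12 h), each panel on its own axis from 0. Striatal and myelin markers are highest in PTU replicate 6 and cortical markers are highest in 12 h replicates 2, 3 and 4.

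Thalamic markers were less uniform, with 2 of 9 called higher and a median log2 change of 1.17. Slc17a6, the glutamate transporter of thalamic neurons, had 153 and 52.9 in PTU and 445, 249.7, 331 and 232 at 12 h, and the log2 change was 1.62 ± 0.39 (SE, adjusted p = 0.0363), and the receptor activity-modifying gene Ramp3 changed by 1.17. Neither call held without PTU replicate 6. Within the libraries with high Xist, the striatal sum differed by -0.56 and the cortical sum by 0.88 on the log2 scale, and within those with Y-linked counts by -0.55 and 0.73. Both sums separated the groups in all 6 libraries, so the same direction in each set follows from that. The 144 called genes that are named by rule also kept their direction in both sets. This too was fixed in advance, because every called gene separated the groups. A part of the sex-linked state in these changes was not tested by it.

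A score of cortical minus striatal markers was computed for each library, as the difference of their mean log2 levels. It was -2.0 and -3.44 in PTU replicates 3 and 6, -1.81, -0.89, -1.0 and -1.07 in 12 h replicates 1 to 4, and 2.46 in the cortical 24 h library against -3.21 to -1.01 in the other 24 h libraries. The log2 difference between the cortical 24 h library and the mean of the other 3, here called the cortical difference, gives for each gene how far it follows this composition in libraries outside the comparison. Its median was 0.00 over all genes, 0.34 over the genes called higher and -0.39 over those called lower. Across the genes tested, Spearman's rho between the 12 h change and the cortical difference was 0.369, a description over genes that share the same libraries and are not independent. In 21.6% of the genes called higher (186) the cortical difference was below 0, and in 17.2% of those called lower (100) it was above 0.

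The genes called in both fits, 116 higher and 36 lower, had a median cortical difference of 0.08 and -0.06. The 10-library fit holds the library that defines this difference, and a gene far from the other 24 h libraries there gains spread and tends to lose its call, so the low medians follow from the selection. With the score as a covariate in the fit of 10 libraries, 940 genes (5.94%) were called, 678 higher (4.28%) and 262 lower (1.66%), and 712 of the 1442 were among them. All 152 genes called in both fits were called there too. In that fit 3 of the striatal markers called in the 6-library fit kept their call and direction, the striatal list counted 5 higher and 3 lower with a median of 0.28, and Drd1, Drd2 and Ppp1r1b turned to 0.18, 0.60 and 0.74. The cortical list kept 3 calls and had a median of 0.21. Both marker lists make up the score, so their medians in this fit follow from it. The thyroid hormone response genes had 15 calls, all higher, and a median of 0.78. The median cortical difference of that list was 0.27. With the score as a covariate in the 6 libraries alone, where it takes 1 of the 4 residual degrees of freedom and follows the groups, 45 genes were called.

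**Figure D3:**
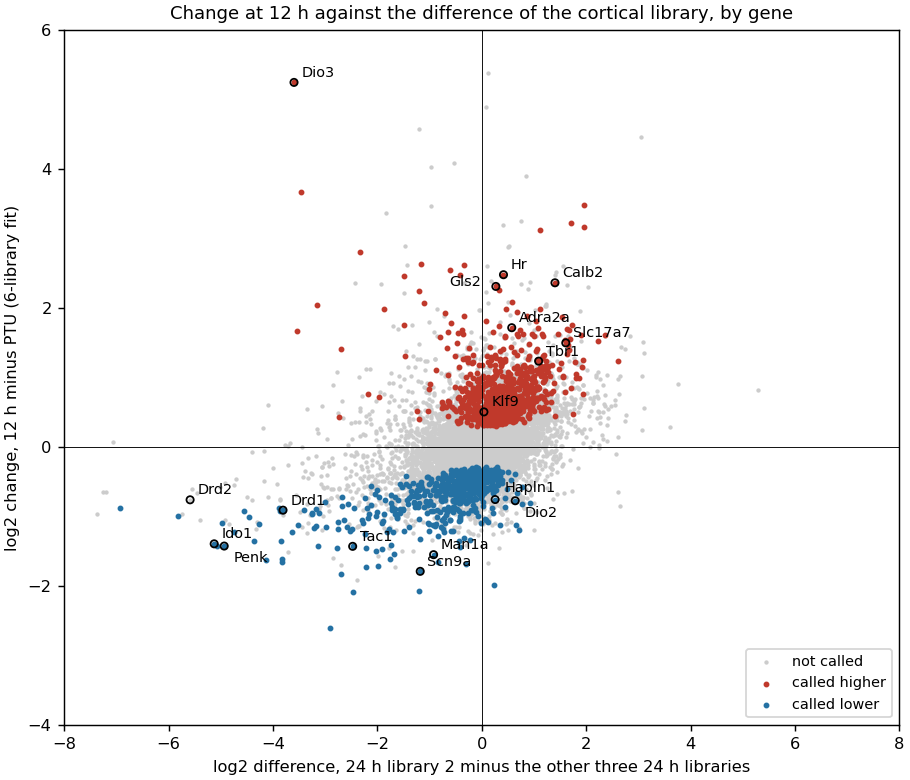
Log2 change at 12 h (y axis) against the cortical difference (x axis) for the genes tested, each a point, red where called higher, blue where called lower and grey otherwise (3 genes lie outside the axes). Striatal markers such as Drd1, Penk and Ido1 lie at the lower left and cortical markers such as Slc17a7 at the upper right. Hr, Gls2, Klf9, Dio2 and Hapln1 lie nearer the middle of the x axis, at 0.41, 0.27, 0.04, 0.64 and 0.26. The median over the genes called higher is 0.34.

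Among neuronal programs, the lists of synaptic release and the axon cytoskeleton had calls in the higher direction alone in the 6-library fit. The lists of glutamate receptors, GABA receptors, sodium channels and dopamine and cAMP signalling had medians of 0.07, -0.09, -0.18 and -0.16. Sodium channels (Scn4b) and dopamine and cAMP signalling (such as Drd1 and Pde1b) share genes with the striatal markers. Of 27 genes of synaptic vesicle release, 10 were called higher and none lower, with a median of 0.33. Of 22 genes of the axon cytoskeleton, 9 were called higher and none lower, with a median of 0.51. The summed normalised counts were 105772 and 106396 in PTU and 131008, 137041, 128776 and 129883 at 12 h for release and 77652 and 68701 in PTU and 92364, 100713, 102343 and 92382 at 12 h for the cytoskeleton. Every 12 h library lay above both controls in both sums. These lists also had a positive median cortical difference, 0.50 and 0.47. No member was called in the 10-library fit, 1 of the 10 release genes (Vamp2) and none of the 9 cytoskeletal genes held without PTU replicate 6, and 5 and 4 of these calls held in the fit with the marker score.

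Syn1, which tethers synaptic vesicles, had 7439.9 and 7784 in PTU and 12851, 13441, 12168 and 11543 at 12 h, and the log2 change was 0.72 ± 0.10 (SE, adjusted p = 0.00745). Vamp2, the vesicle SNARE of transmitter release, had 12808 and 13448 in PTU and 21009.5, 22968, 20715 and 21914 at 12 h, and the log2 change was 0.72 ± 0.09 (SE, adjusted p = 0.00696). Both genes were higher in each 12 h library than in either control by a similar step. Rab3a, a vesicle GTPase, rose by 0.72 and Sv2a, a vesicle glycoprotein, by 0.52. In the cytoskeleton, Mapt (tau) had 3124 and 2965 in PTU and 4766, 5416, 5117 and 4662 at 12 h, and the log2 change was 0.71 ± 0.10 (SE, adjusted p = 0.00745). Tubb3, a neuronal tubulin, rose by 0.88, Tubb4a by 0.51 and Ina, an intermediate filament protein, by 0.51. Syn1, Rab3a and Ina overlap Araf, Mpv17l2 and Nt5c2 on the opposite strand.

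Potassium channel genes were called in both directions. Of 67 potassium and HCN channel genes, 15 were called higher and 4 lower, beside 5.41% and 3.64% of all genes tested. The median of the list was 0.37. Kcnj10, the inward rectifier of astrocytes, had 791 and 1203 in PTU and 2604, 1716, 2057 and 2704 at 12 h, and the log2 change was 1.19 ± 0.22 (SE, adjusted p = 0.0149). It was the one channel of this list called in both fits, and its lowest 12 h library exceeded its highest control. The pacemaker channel Hcn3 rose by 0.77, Kcnh5 by 1.40 and the leak channel Kcnk3 by 1.11. The 4 decreases were Kcnq5 (-0.57), which carries the M current, the A-type channel Kcna4 (-0.76), the neuronal inward rectifier Kcnj2 (-1.02) and the modifier subunit Kcng3 (-1.21). Of the 19 calls, 1 held without PTU replicate 6 and 6 without 12 h replicate 2, and 11 were also called with the marker score.

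Of 21 voltage-gated calcium channel genes, 7 were called higher and 1 lower, beside 5.41% and 3.64% of all genes tested. Cacng8, an auxiliary subunit of AMPA receptors, had 158 and 191 in PTU and 272, 346, 286 and 256 at 12 h, and the log2 change was 0.73 ± 0.15 (SE, adjusted p = 0.0212), and was called in both fits. Its relatives Cacng7 and Cacng2 rose by 0.98 and 0.49, and the channel subunit Cacnb3 by 0.77. Cacna2d3, an α2δ subunit, had 1352 and 1815 in PTU and 941, 682, 665 and 681 at 12 h, and the log2 change was -1.09 ± 0.16 (SE, adjusted p = 0.00831), with a cortical difference of -1.91. None of the 8 calls held without PTU replicate 6. Exons of Cacng2 overlap the tested gene A730060N03Rik on the opposite strand.

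Transmitter receptors were split. Of 24 glutamate receptor genes, 4 were called higher and 2 lower, and of 16 GABA receptor genes, 1 higher and 2 lower. Over all genes tested, 5.41% were called higher and 3.64% lower. The NMDA receptor subunit Grin2d rose by 0.78, the metabotropic receptor Grm8 by 1.09 and the kainate receptors Grik3 and Grik1 by 0.58 and 0.82. Grm5, a metabotropic receptor abundant in projection neurons, had 4231 and 4728 in PTU and 3198, 2793, 2558 and 2700.1 at 12 h, and the log2 change was -0.67 ± 0.11 (SE, adjusted p = 0.0108), and the kainate receptor Grik2 changed by -0.56. For GABA, the B receptor subunit Gabbr2 had 1662 and 1289.8 in PTU and 2838, 3222, 3159 and 2344 at 12 h, and the log2 change was 0.97 ± 0.15 (SE, adjusted p = 0.0108), whereas the A receptor subunits Gabra4 and Gabra2 changed by -0.73 and -0.35. None of the 9 calls held without PTU replicate 6 or was made in the 10-library fit.

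Dopamine and cAMP signalling had 5 of 30 genes called higher and 4 lower, beside 5.41% and 3.64% of all genes tested. The increases included the adenylyl cyclases Adcy2 (0.66) and Adcy8 (1.25), the phosphodiesterase Pde4a (0.68) and the protein kinase A subunit Prkar1b (0.70). The decreases were Drd1, the phosphodiesterase Pde1b (-0.79), the G protein subunit Gnb5 (-0.71) and the kinase subunit Prkar2b (-0.62). Pde1b, like Drd1, changed sign with the marker score in the fit of 10 libraries (0.10). Both are striatal markers that enter the score, so their values in that fit follow in part from it. No call of this list was made in the 10-library fit.

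**Figure D4:**
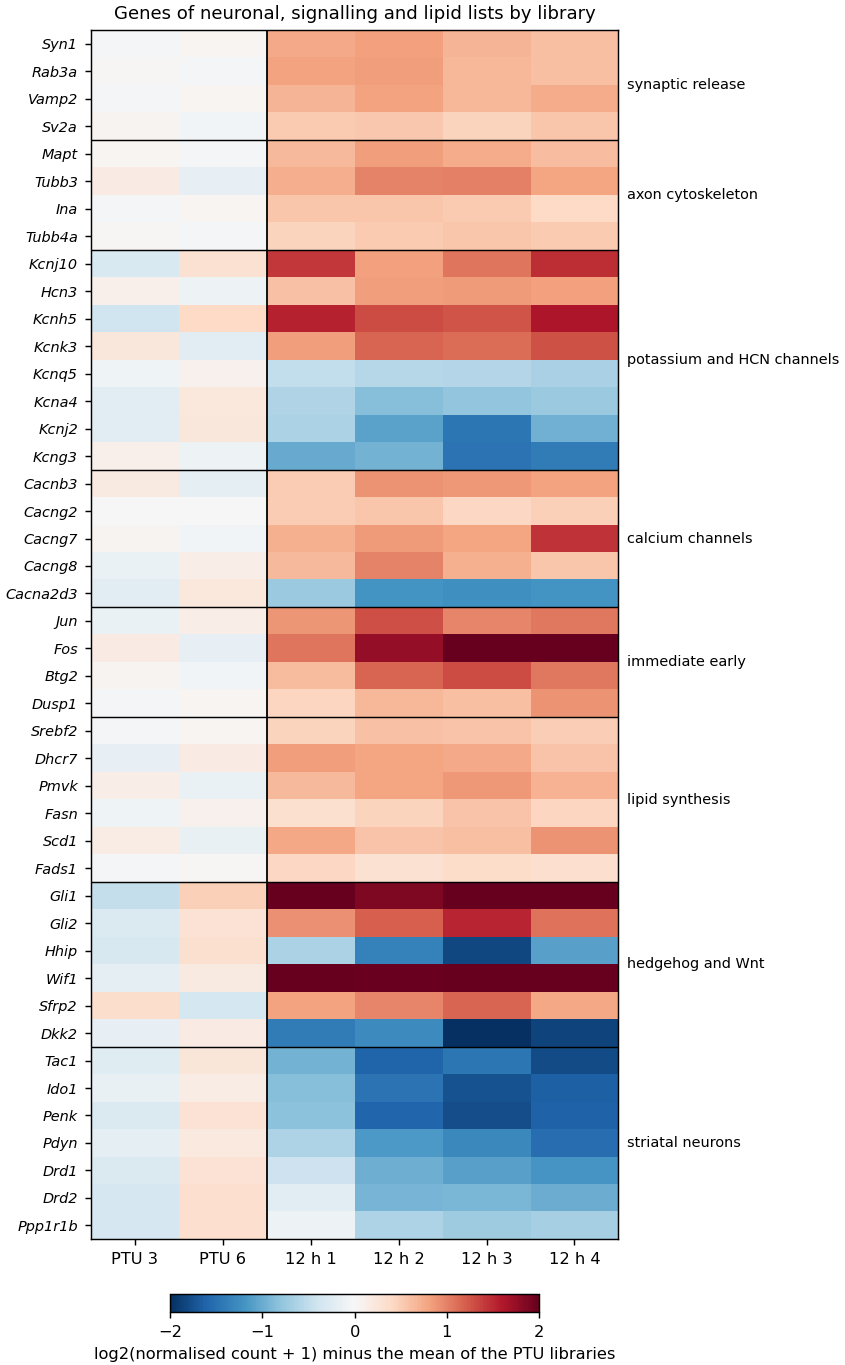
Log2(normalised count + 1) of 44 genes in the 6 libraries, as the difference from the mean of the PTU libraries (colour, from blue for lower to red for higher, limited to -2 and 2). Synaptic, cytoskeletal, immediate early and lipid genes are red in all 12 h libraries, channels are split, and striatal neuron genes are blue, palest in 12 h replicate 1.

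Transmitter metabolism was represented by 4 increases and no decrease among 20 genes, beside 5.41% and 3.64% of all genes tested. Besides Gls2, Slc38a3, a glutamine transporter of astrocytes, had 607 and 631 in PTU and 933, 999, 1113 and 1314 at 12 h, and the log2 change was 0.82 ± 0.14 (SE, adjusted p = 0.0116). Slc6a11, the GABA transporter GAT3 of astrocytes, had 1154 and 947 in PTU and 2526, 1941, 1710.5 and 3198 at 12 h, and the log2 change was 1.16 ± 0.23 (SE, adjusted p = 0.0208). Got1, an aspartate aminotransferase, rose by 0.46. Gls2 and Slc38a3 were called in both fits, and all 4 in the fit with the marker score. Of 14 striatal interneuron markers, 6 had a positive and 8 a negative log2 change, with a median of -0.13. The 1 call was the calcium-binding protein Calb2 (calretinin), with 52.3 and 21.8 in PTU and 174, 194, 103 and 289 at 12 h. The log2 change of Calb2 was 2.36 ± 0.46 (SE, adjusted p = 0.0181), and its cortical difference was 1.40. Its lowest 12 h library was 12 h replicate 3, and the call was lost without PTU replicate 6 (0.132).

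Glial lists had few calls, and their medians ranged from 0.06 in astrocytes to -0.16 in oligodendrocyte precursors, -0.27 in microglia and -0.35 in myelinating oligodendrocytes. Of 18 astrocyte markers, 1 was called higher and 1 lower, and the sums of the list overlapped between the groups (65699.8 to 73478 in PTU and 63922 to 68989 at 12 h). Hapln1, the link protein of hyaluronan and proteoglycans (chromosome 13 from 89539796 to 89611652, plus strand), had 1962 and 1932 in PTU and 1206, 1083, 1166 and 1151 at 12 h, and the log2 change was -0.76 ± 0.08 (SE, adjusted p = 0.00382). Slc7a10, a serine and alanine transporter of astrocytes, had 75.2 and 85.0 in PTU and 154, 119, 150.1 and 121 at 12 h, and the log2 change was 0.76 ± 0.17 (SE, adjusted p = 0.028). Both were called in both fits, with cortical differences of 0.26 and -0.19, and Hapln1 held without each library. Slc7a10 overlaps Lrp3 on the opposite strand.

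None of 18 myelin markers was called by edgeR, 8 had an unadjusted p under 0.05, and DESeq2 on the 6 libraries called 4. Mbp, a main protein of compact myelin, had 13474 and 19837 in PTU and 13966, 9961, 12498 and 10418 at 12 h (adjusted p = 0.103), and the myelin sum was 34335 and 50835 in PTU and 35563, 25637, 30554 and 29622 at 12 h. PTU replicate 6 stood above all other libraries, and the remaining control lay within the 12 h range. Of 14 oligodendrocyte precursor markers, 11 had a negative log2 change and 2 were called lower, and every 12 h sum lay below both controls (24689 and 26803 in PTU and 24652, 21622, 23638 and 24174 at 12 h). Pdgfra, the growth factor receptor of precursors, had 1037 and 1054 in PTU and 776, 693, 739 and 633 at 12 h, and the log2 change was -0.56 ± 0.09 (SE, adjusted p = 0.0123), and Enpp6, of newly formed oligodendrocytes, changed by -0.61. Neither call held without PTU replicate 6 or with the marker score. Of 16 microglial markers, 14 had a negative log2 change and 9 lay wholly below the controls (against 17.9% of all genes), but only Siglech was called, with 367 and 357 in PTU and 268, 179, 225 and 252 at 12 h, and the log2 change was -0.65 ± 0.15 (SE, adjusted p = 0.0298). The call of Siglech was lost without PTU replicate 6 (0.143).

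Vascular lists had few calls, all lower. Of the endothelial markers, 3 had a positive and 12 a negative log2 change, with a median of -0.13. Mural and fibroblast markers did not move together, with 8 positive and 7 negative changes and a median of 0.03. The endothelial transporter Slco1a4 changed by -0.42 (1 of 15 markers), and among 15 mural and fibroblast markers Abcc9, a potassium channel subunit of pericytes, had 332 and 295 in PTU and 216, 202, 209.6 and 212 at 12 h, and the log2 change was -0.58 ± 0.10 (SE, adjusted p = 0.0127), while the pericyte gene Rgs5 changed by -0.41. The third call was Pdgfra, which fibroblasts share with precursors. None was made in the 10-library fit. In the matrix, Col15a1, a basement membrane collagen, had 50.1 and 67.4 in PTU and 131, 141, 153 and 118 at 12 h, and the log2 change was 1.20 ± 0.18 (SE, adjusted p = 0.00939). Col6a2, a chain of microfibrillar collagen VI, had 529 and 535 in PTU and 277, 263, 211 and 345 at 12 h, and the log2 change was -0.96 ± 0.16 (SE, adjusted p = 0.0114), and its partner chains Col6a1 and Col6a4 changed by -0.69 and -1.18. Col15a1 and Col6a2 were called in both fits, in opposite directions. Tnc (tenascin C) changed by -0.67. Of 7 choroid plexus genes above the filter, Sostdc1 was higher (1.49) and Clic6 lower (-1.61), and of 11 ependymal and 3 erythrocyte genes edgeR called none. Of these, 0 and 1 had an unadjusted p under 0.05, and DESeq2 called 0 and 1.

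The hedgehog and Wnt lists had few calls. In the hedgehog pathway, 2 of 12 genes were called higher and 1 lower, beside 5.41% and 3.64% of all genes tested. Of the 12, 9 had a positive and 3 a negative log2 change, with a median of 0.20. Gli2, a transcription factor of the pathway, had 38.1 and 57.0 in PTU and 88.3, 109, 136 and 101 at 12 h, and the log2 change was 1.18 ± 0.23 (SE, adjusted p = 0.0189), and was called in both fits. Gli1, which is itself a transcriptional target of the pathway, had 2.18 and 5.18 in PTU and 23.5, 15.2, 28.3 and 17.1 at 12 h. The log2 change of Gli1 was 2.47 ± 0.50 (SE, adjusted p = 0.0206), with an adjusted p of 0.0771 in the 10-library fit. Its PTU values came from 2 and 5 reads, so the size of the change is uncertain. Hhip, a membrane protein that binds and restrains hedgehog ligands, had 275 and 430.3 in PTU and 221, 134, 96.3 and 161 at 12 h, and the log2 change was -1.20 ± 0.28 (SE, adjusted p = 0.0314). Each of the 3 separated the groups, and none held without PTU replicate 6, at adjusted p-values up to 0.253.

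Among 25 Wnt regulators, 2 were called higher and 1 lower, which is near the 5.41% and 3.64% of all genes tested. The list had 13 positive and 12 negative log2 changes, with a median of 0.12. The 3 calls were of secreted inhibitors. Wif1 had 2.18 and 3.11 in PTU and 16.7, 13.2, 17.0 and 20.9 at 12 h. The log2 change of Wif1 was 2.62 ± 0.46 (SE, adjusted p = 0.0137), and it was called in both fits. With so few counts in PTU, the size of this change is uncertain. Sfrp2 rose by 0.90 and Dkk2 changed by -1.68, from 35.9 and 45.6 in the PTU libraries to 9.44 to 16.2 at 12 h. None of the 3 held without PTU replicate 6.

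Of 19 immediate early genes, 4 were called higher and none lower, with a median of 0.60. Their sums overlapped between the groups, with 7138 and 9586 in PTU and 9418, 10136, 9865 and 12240.3 at 12 h. Within the libraries with high Xist the sum differed by -0.03 on the log2 scale, and within those with Y-linked counts by 0.59. Jun had 303 and 365 in PTU and 617, 817, 656 and 691 at 12 h, and the log2 change was 1.06 ± 0.14 (SE, adjusted p = 0.00696), and its call held in both fits and without each library. Btg2, an antiproliferative early gene, had 101 and 93.3 in PTU and 152, 218, 242 and 204 at 12 h, and the log2 change was 1.07 ± 0.19 (SE, adjusted p = 0.0144), and was called in both fits. Fos had 47.9 and 38.4 in PTU and 91.2, 147, 173 and 218 at 12 h, and the log2 change was 1.87 ± 0.34 (SE, adjusted p = 0.0145), and the phosphatase Dusp1 rose by 0.66. In Fos and Btg2, 12 h replicate 1 was the lowest of its group and still above both controls. Of 14 glucocorticoid response genes, Errfi1, a feedback inhibitor of the EGF receptor, was the one called (0.46).

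Among clock genes, Nfil3, a repressor of D-box genes, had 40.3 and 38.4 in PTU and 59.9, 106, 103 and 115 at 12 h, and the log2 change was 1.28 ± 0.27 (SE, adjusted p = 0.0242), the one call among 5 morning-phase genes and called in both fits. The other 4 (Arntl, Clock, Npas2 and Cry1) had negative log2 changes, of -0.30, -0.21, -0.27 and -0.53. These 4 lay wholly below the controls, as did 17.9% of all genes tested. The sums of the list were 1892 and 2076 in PTU and 1748, 1806, 1714 and 1636 at 12 h. None of these 4 was called by edgeR or DESeq2, and 3 had an unadjusted p under 0.05. Per2 had 328 and 498 in PTU and 274, 231, 232 and 291 at 12 h, and the log2 change was -0.68 ± 0.17 (SE, adjusted p = 0.0376), the one call among 13 evening-phase genes. The D-box factor Tef had an adjusted p of 0.244. The labels give no time of day at sampling, so the part of the clock in these values was not tested.

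Lipid synthesis was represented by a small set of increases. Of 22 cholesterol synthesis genes, 3 were called higher and none lower, and 11 lay wholly above the controls (against 18.6% of all genes). Srebf2, the transcription factor that drives the pathway, had 1249 and 1323 in PTU and 1750.4, 1931, 1902 and 1804 at 12 h, and the log2 change was 0.52 ± 0.08 (SE, adjusted p = 0.011). Dhcr7, the last enzyme of the pathway, had 490.2 and 622 in PTU and 984, 955, 938 and 823 at 12 h, and the log2 change was 0.73 ± 0.12 (SE, adjusted p = 0.011). Pmvk, phosphomevalonate kinase, rose by 0.77. Srebf2 and Dhcr7 were called in both fits, and 1 of the 3 calls held without PTU replicate 6. Of 16 fatty acid synthesis genes, 3 were called higher, and 8 lay wholly above the controls. The stearoyl-CoA desaturase Scd1 had 691 and 565 in PTU and 1066, 927, 953 and 1165 at 12 h, and the log2 change was 0.71 ± 0.12 (SE, adjusted p = 0.0135), with a cortical difference of 1.07. Fatty acid synthase Fasn rose by 0.44 and the desaturase Fads1 by 0.35. Acot11 was the one call among 18 genes of fatty acid oxidation.

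Energy metabolism showed no shift in one direction. Over the 4 lists of oxidative phosphorylation, 4 genes were called higher and 4 lower out of 82 tested. This is near the 5.41% and 3.64% of all genes tested. Atp5o, of the ATP synthase, had 448 and 415 in PTU and 648, 649.6, 584 and 564 at 12 h, and the log2 change was 0.50 ± 0.10 (SE, adjusted p = 0.0185), the one such gene called in both fits. Cox5a and Atp5d rose by 0.45 and 0.48 and Ndufs8 by 0.31, whereas Ndufa6, Ndufa4 and Atp5f1 changed by -0.48, -0.36 and -0.38. Cox6c2 changed by -0.40 and is counted among the 4 lower calls. It is annotated as a processed pseudogene, so its reads may belong to its parent gene. These calls were as frequent in each direction and none held without PTU replicate 6. Of 21 glycolytic genes, Hk1 (0.53) and Aldoa (0.33) were called, and both overlap another tested gene on the opposite strand. Atp5d, Atp5f1, Mrpl36 and Mrps34 do so too, and Atp5o overlaps Donson on its own strand. Of 77 genes of the mitochondrial ribosome, 4 were called higher and 1 lower. Neither share was above the 5.41% and 3.64% of all genes tested. Mrps12 had 145 and 143 in PTU and 290.4, 248, 235 and 209.7 at 12 h, and the log2 change was 0.77 ± 0.15 (SE, adjusted p = 0.017), and was called in both fits, while Mrpl28, Mrpl36 and Mrps34 rose by 0.44, 0.42 and 0.38 and Mrpl33 changed by -0.53.

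Protein handling gave similar counts. Of 73 cytosolic ribosomal genes, Rpl28 was the one called, with 102 and 117 in PTU and 233, 207, 208 and 222 at 12 h, and the log2 change was 0.98 ± 0.13 (SE, adjusted p = 0.00696). It was called in both fits and without each library, although ribosomal genes share sequence with pseudogenes, so its level is uncertain. Of 17 genes of the unfolded protein response, Atf4, its main transcription factor under amino acid stress, had 896 and 847 in PTU and 1162, 1202, 1313 and 1239 at 12 h, and the log2 change was 0.50 ± 0.09 (SE, adjusted p = 0.0132), and the glutathione-degrading Chac1 rose by 0.84. Of 36 autophagy genes, Trp53inp2, the initiating kinase Ulk1 (0.54) and Map1lc3a (0.53) were called higher, beside 5.41% of all genes tested. Trp53inp2 and Ulk1 were called in both fits. The sums of the autophagy list were 20442 and 21294 in PTU and 25386, 25542, 25381 and 25432 at 12 h, a narrow range at 12 h above both controls. None of 34 proteasome, 14 chaperone, 12 interferon response and 25 cell cycle genes was called by edgeR in the 6-library or the 10-library fit or by DESeq2 in the 6 libraries, and 5, 2, 0 and 2 of them had an unadjusted p under 0.05.

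**Figure D5:**
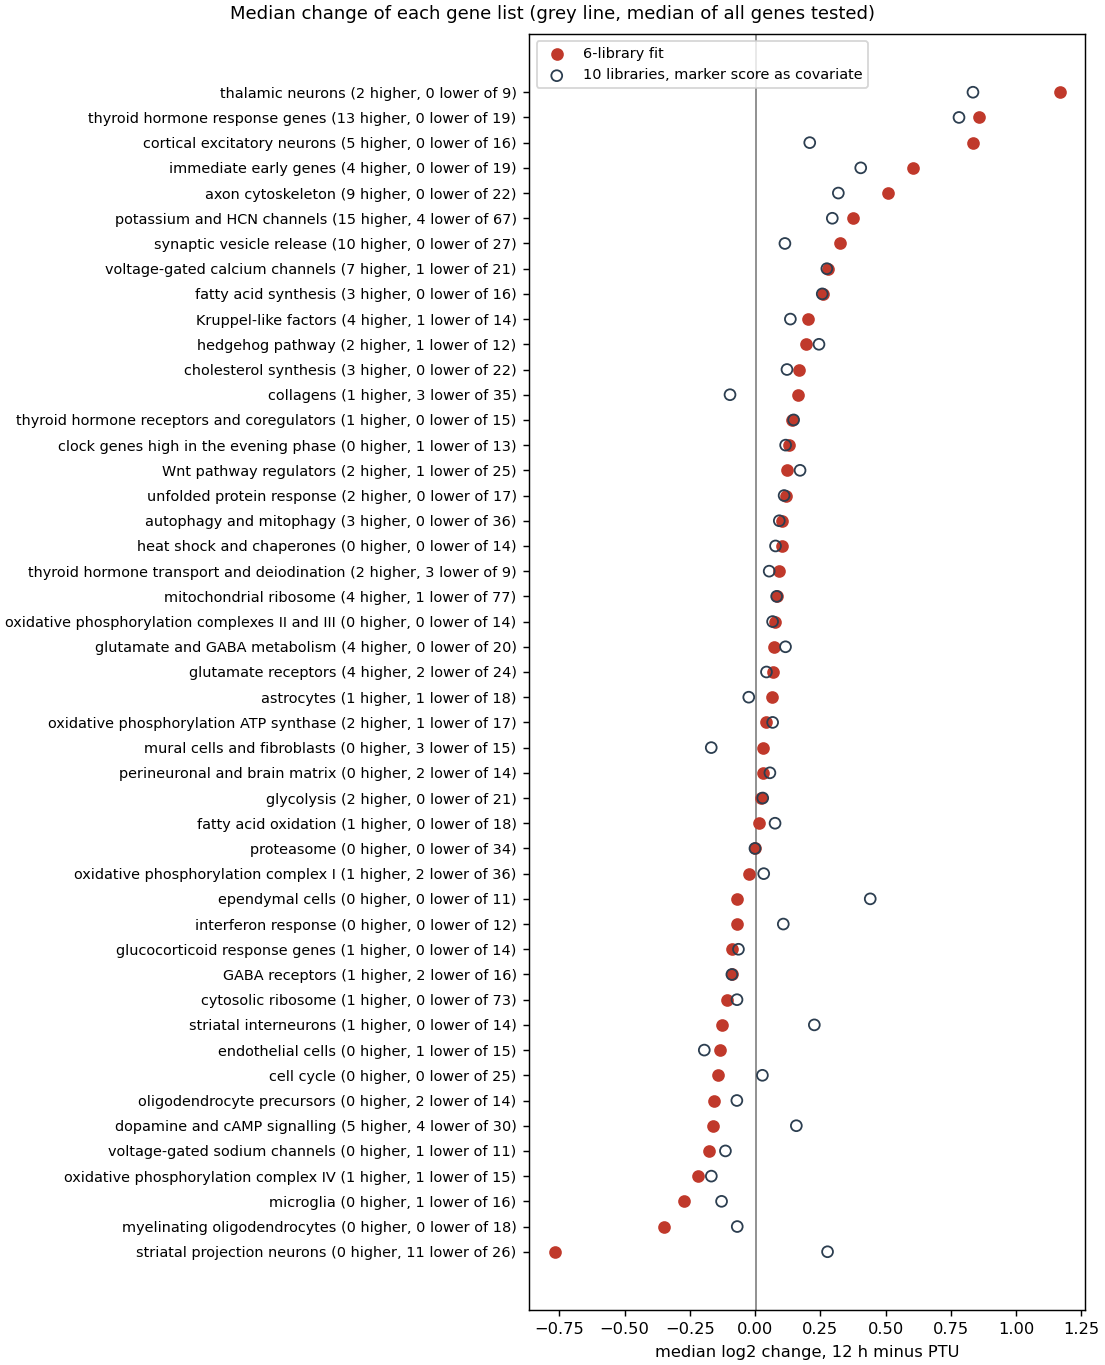
Median log2 change (x axis) of the gene lists with at least 9 genes tested, in the 6-library fit (red) and in the fit of 10 libraries with the marker score (open circles), with the called genes of each list beside its name. The thyroid hormone list lies near 0.8 on both measures. The striatal list moves from the far left to above 0 and the cortical list towards the grey line at the median of all genes. Both marker lists make up the score.

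The 24 h values, from the fit of 10 libraries and against the same 2 PTU libraries, are given beside the 12 h values without a test of likeness. Hr had a log2 change of 2.48 at 12 h and 2.68 at 24 h (adjusted p = 0.00125), and Gls2 2.31 and 2.51 (0.00562). Klf9 had 0.50 and 0.88 (adjusted p = 0.00982). Among other genes called in both fits, Dhcr7 had 0.73 and 0.57 (adjusted p = 0.0944), Hapln1 -0.76 and -0.36 (0.244) and Btg2 1.07 and 0.28 (0.67). Dio2 had -0.77 and -0.51 (adjusted p = 0.387), and Scn9a -1.79 and -1.58 (0.0729). In a direct test of 24 h against 12 h in edgeR, no gene was called, 2309 had an unadjusted p under 0.05 and the smallest adjusted p was 0.057. That test includes the cortical 24 h library, so it does not show that the times were alike.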

How the data were processed

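RNA was extracted from striatum with RNeasy columns, and sequencing libraries from a Lexogen SENSE kit for total RNA were run on a NextSeq 500. According to the study's methods and processing notes, the authors aligned reads to GRCm38 (mm10) with Bowtie2 (Galaxy version 2.2.6.2), removed alignments with a quality below 10 and counted reads per gene with htseqcount. The annotation release and strand setting are not given in the sources used here, and 55327 of the 55341 row names are GENCODE M21 symbols. The authors deposited raw counts, 1 column per library, and name DESeq2 for their own tests. A further 14 rows carry a date in place of a symbol and were left out (at most 0.166% of the counts in any of the 6 libraries). The white adipose tissue table was not used.

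Tests were run on the counts with edgeR 4.0.16 in R 4.3.3. The 2 PTU and 4 TH12h libraries were grouped by their labels, scaled with TMM factors, filtered at a mean normalised count above 10 and compared with the two-sided quasi-likelihood F test (glmQLFit, glmQLFTest). The Benjamini-Hochberg adjustment covered all 15939 genes tested, and the threshold for a call was an adjusted p of 0.05, whatever the fold change. Standard errors are the log2 change divided by the square root of F. Means of log2 CPM used a prior count of 2. Alternatives were fits with 9 or 10 libraries, DESeq2 1.42.0, other scalings and filters, leaving out each library, and covariates for the Y-linked state and for the marker score. Counting intervals cover counting error only. The functions were tested on simulated counts.

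The comparison and the gene lists were chosen with earlier results of these data known, so lists were described by counts and medians, with no set test. The genes named are, for each list, up to 4 called members in each direction by p-value, or the members needed for an example, the 12 leading genes in each direction called in the 6-library and 10-library fits, and 16 genes named whatever their values. Some of these genes are not reported here.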

Additional observations from a re-analysis of the deposited data

Results flagged for a closer look

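Among the named genes reported and the 52 list sums, 19 had a 12 h library that stood apart from the other 3 by Dixon's criterion for 4 samples, which chance meets in about 1 in 20 groups. Of these, 14 were in 12 h replicate 1, 4 in replicate 4 and 1 in replicate 3.

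Striatal neuron genes stood apart in 12 h replicate 1, with normalised counts of 1477 for Drd2, 6596 for Penk, 5878 for Ppp1r1b, 941 for Cacna2d3 and 265 for the choline transporter Slc5a7. The summed striatal projection neuron markers of that library were 76582, against 52172 to 54069 in the other 3, and its ependymal markers summed to 337 and its genes of glutamate and GABA metabolism to 94741. That library also had 26461 counts of Xist, 0 of Ddx3y and a sum of 26476 over the sex-linked genes, whereas the other 12 h libraries had Y-linked counts. The remaining values of replicate 1 were 304 for Hcn3, 2103 for Tef and 884 for Uqcrc1. Composition and sex-linked state moved together in this library and cannot be told apart.

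In 12 h replicate 4, Adcy8 had 328, Cacng7 2712 and Tnfrsf19 1877, and the Wnt regulators summed to 10183. The proliferation gene Top2a had 89.7 in replicate 3.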

How the results depend on the processing

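The main count of 1442 genes stayed within 1.5 times under RLE, total-count and upper-quartile scaling, without mitochondrial rows, with no count filter (1969) or filterByExpr, with DESeq2 on the 6 libraries (1595), in 9 libraries and with the Y-linked state as a covariate (1834). It moved to 152 with all 10 libraries, to 854 with DESeq2 on them, to 940 with the marker score in 10 libraries, to 45 with the score in 6 and, in an alternative chosen after seeing the data, to 269 with the score in 9. Leaving out a library gave 85 (without PTU replicate 6) to 1682 (without 12 h replicate 1). Part of this follows from construction, since 1 control then carries its group and is assumed to vary like the 12 h libraries. The cause of the rest was not tested.

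List medians near 0 changed sign with the scaling, as for glycolysis and the proteasome. The median of mural and fibroblast markers ranged from -0.32 to 0.04 in fits that left out a library. Among named genes called in the 6-library fit or in the alternative, changes of sign occurred only with the score as a covariate. In 10 libraries the log2 change of Drd1 became 0.18, the log2 change of Pde1b 0.10 and the log2 change of Ddx3y -4.60. The uncalled changes of Drd2, Ppp1r1b and Scn4b went from -0.76, -0.54 and -0.65 to 0.60, 0.74 and 0.82. All of these genes except Ddx3y are striatal markers that enter the score, so their values there follow in part from it. The log2 change of Ddx3y was -6.96 in 6 libraries and -5.78 in 9, and the log2 change of Xist was 19.05 in 6 libraries. Xist and Ddx3y are present in some libraries of a group and absent in others. Of the 144 named genes called, 45 kept the call in the 10-library fit, 100 in the fit of 10 libraries with the score and 26 in each fit that left out a library.

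No paired analysis was possible because the PTU replicates (3 and 6) and the 12 h replicates (1 to 4) share 1 number. With 2 controls of about 9 M counts, small changes in genes near the filter of 10 counts could not be detected at this depth.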

Other observations

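Several lists gave no direction. Of 8 abundant nuclear RNAs, none was called by edgeR or DESeq2 in the 6 libraries and 0 had an unadjusted p under 0.05. Malat1, a long nuclear RNA, had 20029 and 15567 in PTU and 7635, 10171, 13620.5 and 17092 at 12 h, so the groups overlapped and the lowest library was 12 h replicate 1. Of 14 genes of the perineuronal and brain matrix, the 2 calls were the decreases of Hapln1 and Tnc, and the sums of the list overlapped between groups. None of 14 genes of complexes II and III was called by edgeR or DESeq2 in the 6 libraries, and 2 had an unadjusted p under 0.05. Among the sex-linked genes Tsix, antisense to Xist, had 26.1 and 34.2 in PTU and 13.7, 16.2, 5.66 and 8.54 at 12 h, with an adjusted p of 0.0477. Both its low level and its overlap with Xist limit this value, since the strand setting is not stated.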
